A study of Homo sapiens with 18 samples.

Results

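Broad open domains were defined as stretches of open chromatin covered by a single ATAC-seq peak of at least 1500 bp in empty-vector cells. Autosomal peaks this wide were taken from the 6 pLKO libraries, overlapping ones were merged within each cell line, and a merged region was kept when at least 2 of the 3 libraries of that line had such a peak. The union over both lines held 805 domains, set against 146903 autosomal regions obtained by merging the peaks of all 18 libraries. Of these domains, 268 were defined in both lines, 139 in Kelly only and 398 in BE2C only, so that 407 were defined in Kelly and 666 in BE2C. Single libraries weighed on these counts, with 112 Kelly domains left without pLKO replicate 1 and 125 without replicate 3, and 433 BE2C domains without pLKO replicate 2 and 323 without replicate 3.

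Kelly and BE2C are established human neuroblastoma lines that the series describes as amplified for MYCN, a transcription factor gene on the short arm of chromosome 2. Each line was transduced with lentivirus carrying shAhR-1, shAhR-2 or the empty vector pLKO, and 3 libraries were made from each of the 6 groups. The 2 hairpins target the mRNA of AHR, which encodes the aryl hydrocarbon receptor, a ligand-activated transcription factor. Controls shared the vector backbone with the hairpin cells. The labels speak of triplicates without saying that these were separate cultures, so p-values measure only the spread between libraries. They also do not say whether the transduced cells were pools or clones. The level of AHR was not measured by this assay, and markers of the cell type could not be read because a gene annotation of hg19, the build of the files, was not used here.

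In ATAC-seq a transposase inserts adapters where DNA is accessible, and a peak caller marks stretches with more insertions than the local background. Most accessible sites are much narrower than this, near the size of a region freed of nucleosomes by bound factors. Peaks of much greater width are known from CpG-rich promoters, from closely spaced regulatory elements and from stretches where many reads stack, and the width that a caller reports also depends on read depth. A peak's fold enrichment is the authors' own value, the read pileup at the summit over the local background, and it is given below as a description, with no test between libraries.

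The libraries differed in background and in list length. Read totals were not used here, and the lowest local background of a library, in reads, was only a rough guide to its depth. It was between 0.601 and 1.43 in Kelly shAhR-1, between 2.56 and 2.91 in Kelly shAhR-2 and between 1.26 and 1.92 in Kelly pLKO. In BE2C it was between 1.41 and 1.75 in shAhR-1, between 3.40 and 4.42 in shAhR-2 and between 1.495 and 1.86 in pLKO. The lists held between 8967 autosomal peaks (Kelly shAhR-1 replicate 1, which also had the lowest background) and 79435 (BE2C shAhR-2 replicate 3). The shAhR-2 libraries had the highest background and the longest lists of their line. List length did not always follow background within a group. Among the Kelly pLKO libraries, replicate 2 had the highest background (1.92) but the shortest list (19445 peaks). Replicate 3 had the lowest background (1.26) and 29196 peaks.

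The number of broad peaks was highest with shAhR-2 and spread widely within the other groups. Kelly shAhR-1 libraries had 24, 188 and 138 autosomal peaks of at least 1500 bp, Kelly shAhR-2 libraries had 1891, 1440 and 1519, and Kelly pLKO libraries had 777, 155 and 516. BE2C shAhR-1 libraries had 1071, 628 and 215, BE2C shAhR-2 libraries had 2939, 3241 and 3828, and BE2C pLKO libraries had 506, 632 and 1262. Every shAhR-2 library lay above every other library of its line, while shAhR-1 and pLKO overlapped in both lines. As geometric means over both lines, shAhR-2 had 4.26 times as many broad peaks as pLKO (4.05 in Kelly, 4.49 in BE2C) and 10.9 times as many as shAhR-1. Exact permutation of libraries within lines, two-sided, gave p = 0.005 for both differences, the smallest value that 400 arrangements can give, or 0.0075 after Benjamini-Hochberg adjustment over 3 comparisons. The ratio of shAhR-1 to pLKO was 0.391, and this difference did not pass (exact permutation p = 0.095, adjusted 0.095); it was 0.216 in Kelly and 0.710 in BE2C. With 1 line alone the same test could not go below 0.1. Whether Kelly and BE2C differed in these 3 ratios stayed undecided (exact permutation p between 0.33 and 0.935). Shuffling labels within lines carries the effect common to both lines into the spread of that test, so it had little power.

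**Figure D1:**
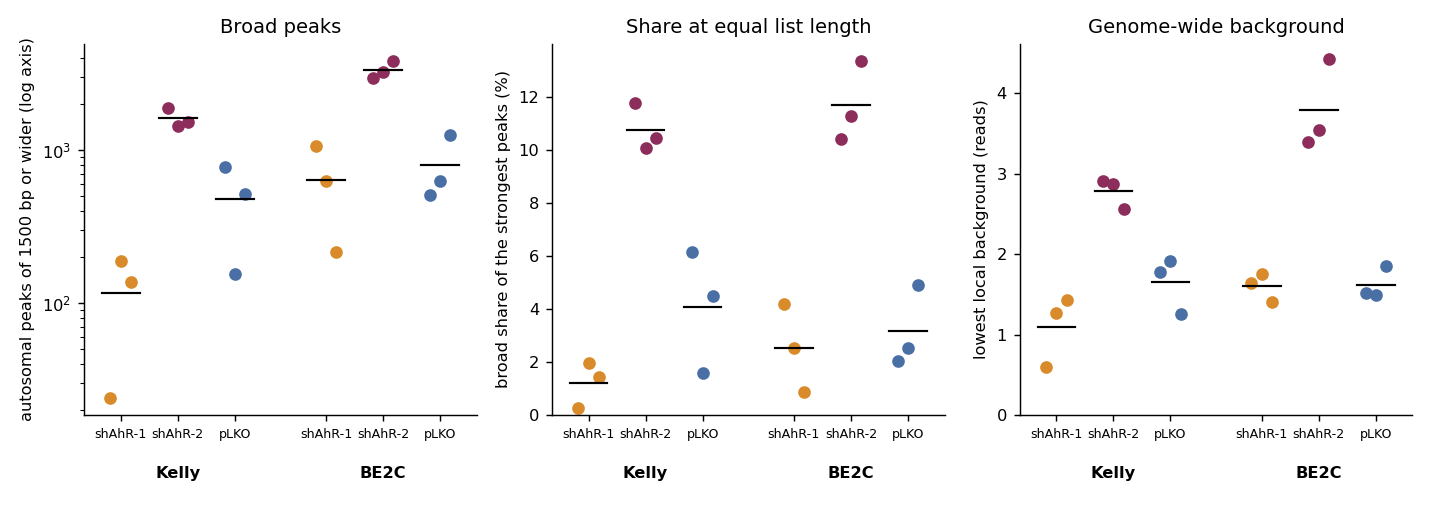
Left, number of autosomal peaks of 1500 bp or wider per library on a log axis; middle, share of broad peaks among the strongest peaks at equal list length within a line; right, the lowest local background of each library in reads. Points are libraries and bars are group means of 3; the shAhR-2 points lie above all others of their line in all 3 panels.

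The share of broad peaks, which takes the length of the list into account, gave the same order. Broad peaks made up 1.96 times as large a share of the list in shAhR-2 as in pLKO (exact permutation p = 0.005, adjusted 0.0075) and 0.541 times as large a share in shAhR-1 as in pLKO (exact permutation p = 0.1, adjusted 0.1). Among the strongest 8967 peaks of every Kelly list and the strongest 24894 of every BE2C list, the broad share was 0.268, 1.95 and 1.44% in Kelly shAhR-1, 11.8, 10.1 and 10.45% in Kelly shAhR-2 and 6.16, 1.60 and 4.49% in Kelly pLKO. In BE2C it was 4.198, 2.52 and 0.864% in shAhR-1, 10.4, 11.3 and 13.3% in shAhR-2 and 2.03, 2.54 and 4.91% in pLKO. Genome-wide background was higher with shAhR-2 as well, and its part in the width of peaks was not tested.

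Most domains carried a broad peak with shAhR-2, and a smaller share did so with shAhR-1. Because pLKO widths chose the domains, the values against pLKO in the line that defined them are a description. Of the 407 Kelly domains, 76 (18.7%) had a broad peak in at least 2 of the 3 shAhR-1 libraries and 387 (95.1%) in at least 2 of the 3 shAhR-2 libraries. Of the 666 BE2C domains, 365 (54.8%) did so with shAhR-1 and 646 (97.0%) with shAhR-2. The shAhR-1 counts fell to 24 and 22 in Kelly without its replicate 2 or 3, and to 147 and 168 in BE2C without its replicate 1 or 2. The same rule applied to each hairpin group gave 81 domains in Kelly shAhR-1, 1505 in Kelly shAhR-2 and 407 in Kelly pLKO, and 481, 3097 and 666 in the matching BE2C groups. The shared domains were therefore 93.8% of the Kelly shAhR-1 set and 25.7% of the Kelly shAhR-2 set, and 75.9% and 20.9% of the BE2C sets.

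Loss of the broad call seldom meant loss of the peak. In Kelly shAhR-1 the single-library counts of broad domains were 24, 137 and 110 of 407, against 405, 127 and 392 in pLKO. Kelly pLKO replicate 2 thus lay within the range of the shAhR-1 libraries, and 280 of the 407 Kelly domains were broad in pLKO replicates 1 and 3 but not in replicate 2. A narrower single peak covered 249, 137 and 172 Kelly domains in the shAhR-1 libraries, and 2 or more narrower peaks covered a further 42, 131 and 124. No peak at all was found at 92, 2 and 1 of them, so that absence was almost confined to replicate 1, the library with the shortest list. In BE2C shAhR-1, 521, 370 and 178 of 666 domains were broad, against 451, 538 and 648 in pLKO, and at most 8 domains had no peak in any 1 library. In the shAhR-2 libraries 371 to 388 of 407 Kelly domains and 637 to 654 of 666 BE2C domains were broad, and none of the domains lacked a peak in a shAhR-2 library of the line that defined it.

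**Figure D2:**
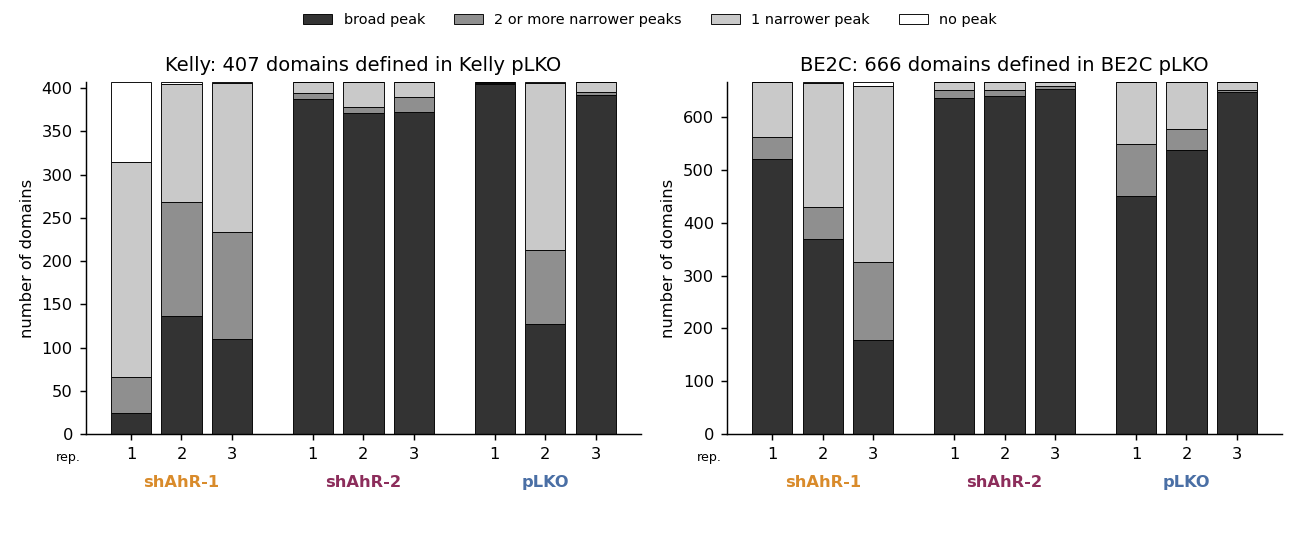
Number of domains defined in Kelly pLKO (left) and BE2C pLKO (right) that carry a broad peak, 2 or more narrower peaks, 1 narrower peak or no peak in each library of the same line. Broad calls fill the shAhR-2 columns, and the shAhR-1 columns hold mostly narrower peaks in Kelly.

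Peaks at domains were also present across conditions and lines. Of the Kelly domains, 99.5% had a peak of any width in at least 2 of the 3 Kelly shAhR-1 libraries, against 63.1% of the 24565 narrower Kelly pLKO regions. In BE2C pLKO the shares were 97.5% and 78.8%. Of the BE2C domains, 93.7% had a peak in Kelly shAhR-1 and 96.3% in Kelly pLKO, against 45.2% and 58.4% of the 32337 narrower BE2C regions. With shAhR-2 most narrower regions had a peak too. Kelly domains and narrower Kelly regions had one in 100% and 92.25% of cases in Kelly shAhR-2, and in 98.8% and 91.9% in BE2C shAhR-2. For BE2C domains and regions the shares were 100% and 96.7% in BE2C shAhR-2, and 98.8% and 75.6% in Kelly shAhR-2. Domains were also longer than these regions, and the part of length was not tested. In all, 536 of the 805 domains had a peak in each of the 18 libraries, and 17 were broad in each of them. Those 17 were all defined in both lines.

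Width at the domains followed the same order as the counts. In the Kelly libraries the median width of the widest peak at Kelly domains was 553, 1304 and 1225 bp in shAhR-1, 1875, 1815 and 1845 bp in shAhR-2 and 1747, 1320 and 1686 bp in pLKO. In BE2C the medians at BE2C domains were 1681, 1535 and 1253 bp in shAhR-1, 1899, 1894 and 1942 bp in shAhR-2 and 1578, 1643 and 1735 bp in pLKO. The shAhR-2 libraries also varied least among themselves. The median SD of log2 width over the 3 libraries of a group was 0.686 in Kelly shAhR-1, 0.062 in Kelly shAhR-2 and 0.269 in Kelly pLKO, and 0.238, 0.0429 and 0.122 in BE2C shAhR-1, shAhR-2 and pLKO.

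Domains defined by the other line gave widths that the pLKO libraries of a line had not chosen. At the 666 domains defined in BE2C, median widths in Kelly were 499, 1083 and 1032 bp in shAhR-1, 1725, 1672 and 1683 bp in shAhR-2 and 1563, 1089 and 1477 bp in pLKO. A broad peak covered 21, 134 and 99 of them in the Kelly shAhR-1 libraries, 511, 474 and 481 in shAhR-2 and 380, 111 and 300 in pLKO. At the 407 domains defined in Kelly, median widths in BE2C were 1698, 1529 and 1327 bp in shAhR-1, 1930, 1924 and 1953 bp in shAhR-2 and 1537, 1598 and 1725 bp in pLKO. Here 305, 208 and 130 were broad in the BE2C shAhR-1 libraries, 371, 375 and 379 in shAhR-2 and 215, 244 and 320 in pLKO. All 3 shAhR-2 values lay above all 3 pLKO values in both lines. In Kelly the shAhR-1 medians lay below the pLKO medians, the nearest being 1083 bp in shAhR-1 replicate 2 and 1089 bp in pLKO replicate 2, while the broad counts of these groups overlapped. In BE2C shAhR-1 and pLKO overlapped in both measures.

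**Figure D3:**
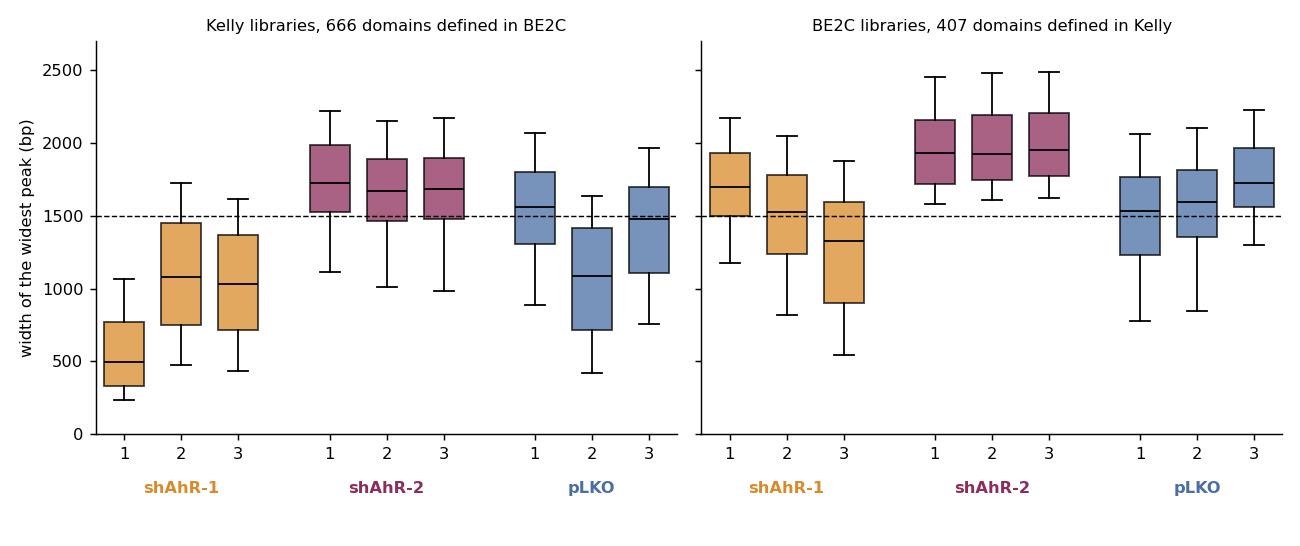
Width in bp of the widest peak at domains defined by the other line, for Kelly libraries (left) and BE2C libraries (right). Boxes span the quartiles with the median, whiskers the 10th to 90th percentiles, and the dashed line marks 1500 bp; shAhR-2 medians lie between 1672 and 1725 bp in Kelly and between 1924 and 1953 bp in BE2C.

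Domains defined in 1 line only had been kept for not being broad in the other line's pLKO cells, so their counts there are a description. Of the 398 domains defined in BE2C only, 3 were broad in at least 2 libraries of Kelly shAhR-1 and 240 in Kelly shAhR-2, while the rule fixes the count in Kelly pLKO at 0. Of the 139 defined in Kelly only, 13 were broad in BE2C shAhR-1 and 108 in BE2C shAhR-2.

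Once widths were set relative to the other peaks of the same library, few domains stood out. Log2 widths were centred on the median of each library and fitted with limma in regions with a peak in all 9 libraries of the line, 6662 in Kelly and 17648 in BE2C, with Benjamini-Hochberg adjustment over all of them. This filter kept 546 of the 805 domains in Kelly and 774 in BE2C. Kelly shAhR-1 replicate 1 alone had no peak at 256 of the 805. The Kelly fit thus leaves out domains that lacked a peak in a group under test. Without centring, the median log2 change over all fitted regions was 0.34 for shAhR-2 against pLKO in Kelly and 0.47 in BE2C, so the fitted regions shifted as a whole. For shAhR-2 against pLKO in Kelly, 0 fitted regions were called wider by limma on this scale. Over whole lists the median peak width was 507, 504 and 466 bp in Kelly shAhR-2 and 546, 447 and 521 bp in Kelly pLKO, which overlapped. For shAhR-1 against pLKO it was -0.49 in Kelly and -0.09 in BE2C. In the tests against pLKO only the domains defined by the other line are read.

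With shAhR-1, 0 of the 450 BE2C-defined domains fitted in Kelly passed an adjusted p of 0.05 by limma, against 0.045% of all regions (0.015% wider and 0.03% narrower). At an unadjusted p under 0.05 there were 62 (13.8%, against 12.3% of all regions), and the lowest adjusted p was 0.0585. In BE2C, 0 of 385 Kelly-defined domains passed (0.00567% of all regions), with 26 at an unadjusted p under 0.05 (6.75%, against 10.7%). No other tool was run for these counts. Both shares are close to or under those of all regions. The count in Kelly depended on single libraries, with 7 domains called without shAhR-1 replicate 1, 1 without replicate 2, 2 without replicate 3 and 8 without pLKO replicate 2. In BE2C it was 3 without shAhR-1 replicate 1.

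With shAhR-2, 0 of 450 BE2C-defined domains passed in Kelly, where 0.045% of all regions did, and 14 had an unadjusted p under 0.05 (3.11%, against 5.96%). In BE2C, 1 of 385 Kelly-defined domains was called wider and 1 narrower, against 0.482% and 0.085% of all regions (0.567% in either direction). Without centring, 24 were called wider and 0 narrower. The domain chr12:25055004-25056566, defined in Kelly, was wider with shAhR-2, at 2076, 1797 and 1969 bp, against 552, 433 and 690 bp in BE2C pLKO (centred log2 change 1.32, SE 0.19, limma adjusted p = 0.0417, and 1.83 without centring). The groups did not overlap, and BE2C shAhR-1 lay near pLKO at 997, 592 and 478 bp. The domain chr4:174442317-174445211, defined in both lines, was narrower with shAhR-2 relative to the other fitted regions, at 1806, 2029 and 1988 bp, against 2106, 2120 and 2778 bp in BE2C pLKO (centred log2 change -0.76, SE 0.14, limma adjusted p = 0.0447). Without centring its log2 change was -0.26, and it was not called. Its fold was lower too, at 3.25, 3.27 and 2.99 in shAhR-2 and 5.23, 5.73 and 3.77 in pLKO. The BE2C pLKO libraries also took part in defining this domain. Neither call was made when any 1 of the BE2C shAhR-2 libraries, or pLKO replicate 1 or 2, was left out, and 4 domains were called without pLKO replicate 3.

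In BE2C the median centred log2 change of the Kelly-defined domains with shAhR-2 against pLKO was -0.26, beside -0.04 over all regions. Without centring it was 0.24, beside 0.47 over all regions, so its sign depended on the centring. An unadjusted p under 0.05 was found for 128 of the 385 (33.2%, against 16.7% of all regions). In Kelly the median at BE2C-defined domains was -0.09 centred, beside -0.03 over all regions, and 0.28 without centring.

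The hairpins were compared at all domains, since neither chose them. The choice of domains still touched this fit, because its spread was shared with the pLKO libraries of the line. In Kelly, 7 of 546 domains were wider in shAhR-2 than in shAhR-1 after centring and 0 were narrower, against 0.285% and 0.225% of all regions (0.51% in either direction). Without centring, where all regions had a median of 0.87, 221 of the 546 were called wider and 0 narrower. The 7 domains were chr1:70032720-70034488, chr2:42720522-42722315, chr7:153748258-153750892, chr12:31476855-31479432, chr12:89918379-89920143, chr13:72438787-72441630 and chr21:33244888-33246575, with log2 changes between 0.88 and 1.72 and limma adjusted p between 0.0337 and 0.0474. Without centring their log2 changes were between 1.78 and 2.62. The rule for naming asked for the same call in both lines and gave no domain, so these 7 were picked with their values known. The smallest adjusted p was shared by chr12:89918379-89920143 and chr1:70032720-70034488, of which the second had 2055, 1942 and 1674 bp in shAhR-2, against 342, 457 and 479 bp in shAhR-1, and 1694, 1224 and 1769 bp in pLKO. The largest change belonged to chr12:31476855-31479432, with 2737, 2600 and 2586 bp in shAhR-2 and 355, 582 and 386 bp in shAhR-1. Of these 7, 6 were defined in Kelly pLKO. No domain was called when any 1 Kelly shAhR-2 library was left out or when only the 2 hairpin groups were fitted. From the bases covered by all peaks 1 was called, and 17 were called without shAhR-1 replicate 1, which had the shortest list.

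In BE2C, 0 of 774 domains differed between shAhR-2 and shAhR-1 by limma, where 0.119% of all regions did (0.113% wider and 0.00567% narrower), and the lowest adjusted p was 0.0897. An unadjusted p under 0.05 was found for 260 of them (33.6%, against 19.7% of all regions), and the median centred log2 change was -0.19, beside -0.03 over all regions and 0.43 without centring. Without centring, 145 were called wider and 0 narrower. Leaving out BE2C shAhR-1 replicate 1 gave 12 calls and leaving out replicate 2 gave 1.

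Enrichment at the summit did not follow width. At Kelly domains the median fold was 5.80, 7.06 and 6.51 in shAhR-1, 6.13, 6.11 and 6.83 in shAhR-2 and 7.85, 5.97 and 8.26 in pLKO. At BE2C domains it was 7.80, 6.08 and 6.43 in shAhR-1, 6.38, 6.31 and 5.75 in shAhR-2 and 8.20, 8.78 and 8.24 in pLKO. In BE2C every shAhR-2 median lay below every pLKO median, at domains that were wider with shAhR-2. Whole BE2C lists moved the same way, with median folds of 5.20, 4.84 and 4.40 in shAhR-2 and 5.70, 6.11 and 6.30 in pLKO. The read pileup solved from fold and p-value at BE2C domains was higher, at medians of 178, 183 and 189 reads in shAhR-2 and 57, 67 and 107 reads in pLKO.

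By fold, a typical domain ranked only moderately high among the peaks of its own list. Fold is set against the local background, whose median ratio to the genome-wide background was 4.43 at domains and 1.69 over all pLKO peaks. The lists of equal length above were ranked by p-value, and the domains were not ranked in that way. Within a list, the median percentile of the fold of a domain's widest peak ran between 59.0 and 66.9 in Kelly shAhR-1. It ran between 66.3 and 71.9 in Kelly shAhR-2 and between 62.2 and 63.9 in Kelly pLKO. In BE2C it ran between 60.2 and 66.4 in shAhR-1, between 64.6 and 68.3 in shAhR-2 and between 68.4 and 74.0 in pLKO. The position of the summit was often not fixed within a domain. Summits of all libraries lay within 250 bp of each other in 200 domains, and the median range was 536 bp.

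The domains were between 1511 and 4139 bp long, with a median of 1819 bp and a total of 1.54 Mb. In 38 of them the mean pLKO width was at least 2000 bp. Just inside the limit lay chr2:232328448-232330152, chr4:78952437-78954287 and chr4:119273045-119274701, whose second-widest pLKO peak was 1500 bp. Just outside it lay chr21:28215310-28219053 and chr6:3227222-3229545 at 1499 bp and chr1:161695605-161697449 at 1498 bp.

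The widest domain was chr2:16079718-16083856, defined in both lines. Its widest peak spanned 3871, 4114 and 4073 bp in Kelly shAhR-1, 4161, 4147 and 4169 bp in Kelly shAhR-2 and 4028, 4104 and 3982 bp in Kelly pLKO. In BE2C it spanned 3076, 2874 and 3110 bp in shAhR-1, 3341, 3390 and 4072 bp in shAhR-2 and 3274, 3238 and 3071 bp in pLKO. It was broad in all 18 libraries, and the summit lay at the same base in all of them. The domain chr6:58776273-58779555 was also broad in all 18 libraries, with widths between 3195 and 3431 bp. Its summit was not fixed and ranged over 746 bp.

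Other wide domains varied with library. At chr6:143265432-143268664 Kelly shAhR-1 libraries had 552, 1047 and 1229 bp, Kelly shAhR-2 libraries 3169, 3098 and 3218 bp and Kelly pLKO libraries 3090, 1397 and 3035 bp. In BE2C the widths were 3187, 1229 and 1157 bp in shAhR-1, 3206, 3269 and 3235 bp in shAhR-2 and 3011, 3013 and 3193 bp in pLKO. The low values all belonged to shAhR-1 libraries and to Kelly pLKO replicate 2. At chr4:102266591-102269671 the widths were 638, 1595 and 2099 bp in Kelly shAhR-1, 1953, 1937 and 2751 bp in Kelly shAhR-2 and 2871, 1240 and 3041 bp in Kelly pLKO, so 2 of the 3 pLKO libraries exceeded all shAhR-2 libraries. BE2C had 3163, 2905 and 1320 bp there in shAhR-1, 3153, 3097 and 3349 bp in shAhR-2 and 2894, 2924 and 3075 bp in pLKO.

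**Figure D4:**
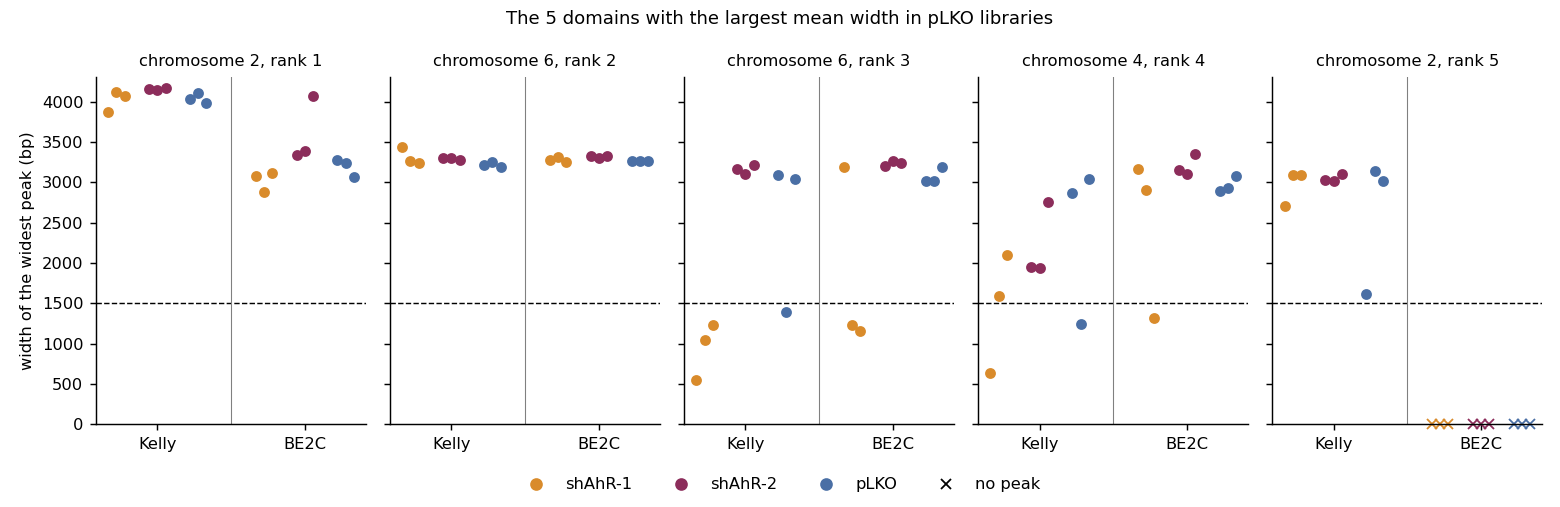
Width in bp of the widest peak at the 5 domains with the largest mean width over the pLKO libraries that had a peak, ordered by rank, with 1 point per library and crosses at 0 for libraries with no peak. The dashed line marks 1500 bp; ranks 1 and 2 stay at or above 2874 bp in all 18 libraries, and rank 5 has no peak in any BE2C library.

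Local background set a small group of domains apart. The local background at a domain was a median of 4.43 times the genome-wide background in pLKO libraries, against 1.69 times over all pLKO peaks. In 39 domains it was at least 20 times. Of these, 12 lay on chromosome 2 between 15834295 and 16775021, where every domain had a ratio between 52.1 and 299.7. The other 27 were spread over 13 chromosomes, 18 of them defined in both lines. Of the 17 domains broad in all libraries, 13 were in the high-background group. No list of repeats, centromeres or assembly gaps was used to leave out domains. Whether these 17 lie in or beside such stretches, where reads can stack, was not looked up.

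The chromosome 2 set held 4 domains defined in both lines, 4 in Kelly only and 4 in BE2C only, over 0.941 Mb. Of the Kelly-only domains, 3 had no peak in any BE2C library. At chr2:15834295-15837428 the widths were 2705, 3094 and 3095 bp in Kelly shAhR-1, 3029, 3019 and 3101 bp in shAhR-2 and 1613, 3134 and 3014 bp in pLKO, and no BE2C library had a peak. At chr2:16771291-16775021 they were 1692, 1838 and 3191 bp in Kelly shAhR-1, 1810, 2171 and 1845 bp in shAhR-2 and 1701, 3731 and 1765 bp in pLKO, again with no peak in BE2C. At chr2:15909943-15912285 they were 1304 and 2151 bp in Kelly shAhR-1 replicates 2 and 3, with no peak in replicate 1, 2292, 2322 and 3034 bp in shAhR-2 and 2266, 2290 and 1640 bp in pLKO. Extra copies of a stretch of DNA add reads to its local background as well as to its peaks. Copy number was not measured here, and its part in the background and widths of this set was not tested, nor was the overlap of these positions with MYCN looked up.

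Broad calls with shAhR-1 were also counted by local background, without a test. Of the 8 chromosome 2 domains defined in Kelly, 6 were broad in at least 2 of 3 Kelly shAhR-1 libraries, as were 16 of the 21 other high-background ones, but 54 of the remaining 378 (14.3%). In BE2C shAhR-1 the counts were 7 of 8, 19 of 24 and 339 of 634 (53.5%). With shAhR-2 the remaining domains were broad in 360 of 378 cases in Kelly and 614 of 634 in BE2C. A gap was also seen in a pLKO library, counted over the domains of both lines and without the rule of 2 of 3 libraries. Kelly pLKO replicate 2 had a broad peak at 85.2% of the 27 high-background domains outside the chromosome 2 set. It had a broad peak at 13.3% of the 766 below the limit. Over these same sets, single Kelly shAhR-1 libraries had between 48.1 and 70.4% and between 0.7 and 18.4%. These shares cannot be set beside the 14.3% above, which is for domains defined in Kelly. The part of local background in these widths was not tested.

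**Figure D5:**
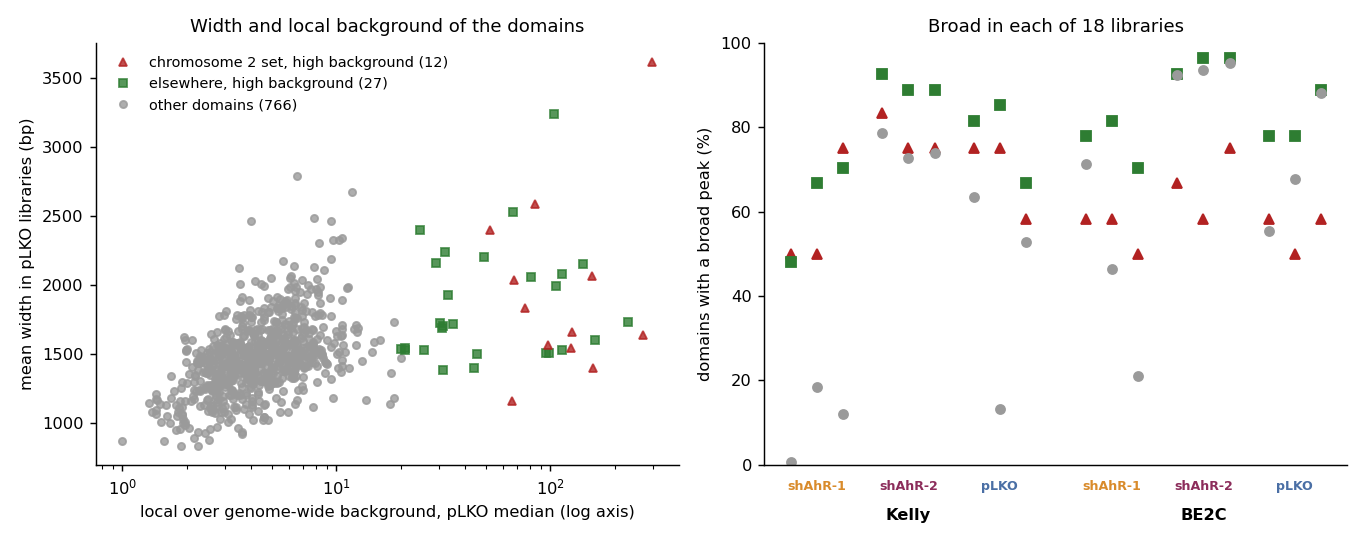
Left, local over genome-wide background (log axis) against the mean width in pLKO libraries for each of the 805 domains; right, share of domains with a broad peak in each library, for the 12 high-background domains of chromosome 2 (triangles), the 27 elsewhere (squares) and the other 766 (circles). The circles lie between 0.7 and 18.4% in Kelly shAhR-1 and at 13.3% in Kelly pLKO replicate 2, where the squares lie between 48.1 and 70.4% and at 85.2%.

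Besides the high-background ones, 4 domains were broad everywhere, and their local background also lay above the domain median of 4.43 times the genome-wide one. They were chr5:10028-11777 (18.5 times), chr8:43793174-43794872 (12.6), chr16:33973657-33975910 (9.46) and chr3:143689779-143692157 (10.3). The last of these had 1847, 2311 and 2230 bp in Kelly shAhR-1, 2387, 2394 and 2422 bp in shAhR-2 and 2343, 2318 and 2377 bp in pLKO. In BE2C it had 2308, 2141 and 2109 bp in shAhR-1, 2391, 2405 and 2450 bp in shAhR-2 and 2277, 2314 and 2315 bp in pLKO. Others with near-constant widths, chr4:68264310-68266747 at 2312 to 2458 bp and chr21:9825474-9827541 at 2034 to 2069 bp, belonged to the high-background group.

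Some domains were broad in libraries of 1 line and in none of the other. Of the 139 Kelly-only domains, 18 had no broad peak in any BE2C library, and of the 398 BE2C-only domains, 101 had none in any Kelly library. The widest of these 101 by mean width in BE2C pLKO was chr7:19145966-19148379, which had 2527, 2183 and 526 bp in BE2C shAhR-1, 2629, 2566 and 2544 bp in shAhR-2 and 1922, 2351 and 2339 bp in pLKO. In Kelly its widths were at most 824 bp with shAhR-1, 1012 to 1336 bp with shAhR-2 and at most 880 bp in pLKO. At chr2:231733964-231736178 BE2C had 2096, 871 and 997 bp in shAhR-1, 2183, 2259 and 2191 bp in shAhR-2 and 2040, 2215 and 2123 bp in pLKO. At chr11:133815478-133818417 the widths were 2141, 2657 and 1154 bp in BE2C shAhR-1, 2172, 2440 and 1993 bp in shAhR-2 and 1359, 1911 and 2940 bp in pLKO.

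A few domains had no broad peak with shAhR-2. In Kelly 9 of 407 domains and in BE2C 5 of 666 were of this kind in all 3 shAhR-2 libraries of the line. At chr16:33962992-33964532, a high-background position, the widths were 1167, 1143 and 1171 bp in Kelly shAhR-2 and 1530, 1502 and 1509 bp in Kelly pLKO. At chr3:61235712-61237291 they were 885, 734 and 774 bp in Kelly shAhR-2 and 1568, 690 and 1568 bp in Kelly pLKO, so that pLKO replicate 2 resembled shAhR-2. At chr1:10960077-10961914 they were 444, 685 and 579 bp in BE2C shAhR-2 and 1838, 572 and 1671 bp in BE2C pLKO. At chr2:220371537-220373142, which had no peak in Kelly, they were 1253, 1294 and 1365 bp in BE2C shAhR-2 and 1214, 1532 and 1597 bp in BE2C pLKO. These 4 positions were picked with their values known.

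Domains were scattered over all 22 autosomes. The median gap between neighbours was 1914394 bp, and 104 domains fell into 43 clusters with gaps under 100000 bp. The largest clusters held 5 domains, at chr1:149683068-149858771 and, within the chromosome 2 set, at chr2:16189972-16380458. Clusters of 4 lay at chr1:161409761-161433711 and chr2:220317463-220436965, both defined in BE2C only, and at chr16:46391026-46434600. A domain had a median of 3 other pLKO regions within 50000 bp, as had pLKO regions in general. Per 1000 pLKO regions, chromosomes 21, 4 and 2 held the most domains, at 19.1, 18.1 and 16.9, and chromosomes 22, 19 and 15 the fewest, at 0.966, 6.67 and 7.66. The 95 domains of chromosome 2 include the 12 of the high-background set there. The values of chromosomes 21 and 22 rest on 14 domains and 1 domain.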

How the data were processed

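Peak lists of 18 ATAC-seq libraries were used, 1 list per library, on build hg19 per the submitters' processing notes. The notes name MACS2 2.1.0, deepTools 3.1.3, BWA 0.7.17, Trimmomatic 0.33 and CASAVA 1.8.2. Settings, duplicate removal and any transposase offset of reads, which could move peak edges, were not given in the sources used here. Per the labels' protocols, transposition lasted 30 min and PCR 10 cycles. Each peak came with an integer score, a fold enrichment as a linear ratio, a −log10 p-value and a −log10 q-value, deposited by the authors as their caller gave them. The score was not used.

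Only chromosomes 1 to 22 were used; 2.57 to 3.38% of the peaks of a library lay elsewhere. Overlap meant at least 1 bp, and a domain's width in a library is that of the widest peak overlapping it, which may extend past the domain. A domain's fold is the highest among its peaks, while its fold percentile, pileup and local background are those of the widest peak. Where no peak passed, no width exists. Pileup and local background were solved from fold and −log10 p with a pseudocount of 1 for folds of at least 1.5, giving whole pileups within 0.05 for between 96.7 and 99.95% of peaks. The part of depth in the widths was not tested, and fold values were set side by side only as descriptions. Broad peaks were compared by exact permutation over libraries within lines. Widths were fitted with limma 3.58.1 (R 4.3.3, Python 3.11.15) and both functions were tested on simulated data. Centred widths gave no sign of pairing by replicate number: same-number correlations were between -0.237 and 0.0839, with 0 of 18 over 0.1. Centring had removed any shift of a whole library beforehand, so pairing in depth or overall width was not tested. Regions named were the 5 widest, 3 per line with no broad peak in the other line, the 5 with the largest lowest width, 3 at either side of the width limit, and those past an adjusted p of 0.05, with any others marked in the text. Gene and sequence context was not used here, for want of an hg19 reference. The domains and lists were chosen with earlier results of these data known.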

Additional observations from a re-analysis of the deposited data

Results flagged for a closer look

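Chromosome X was outside the definition of the domains and also carried broad peaks. The Kelly shAhR-2 libraries had 50, 43 and 43 peaks of at least 1500 bp there, against 17, 3 and 10 in Kelly pLKO, and the lowest shAhR-2 library, with 43, lay above the highest pLKO library. The BE2C shAhR-2 libraries had 113, 115 and 135, against 14, 16 and 38 in BE2C pLKO, so that the lowest, with 113, lay above every pLKO library. Kelly shAhR-1 had 0, 1 and 2 and BE2C shAhR-1 had 39, 19 and 7. These counts were singled out because they come from data that no comparison above uses, and they were not tested apart from it.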

How the results depend on the processing

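The direction and the side of 0.05 of all 6 comparisons of the number and share of broad peaks were kept under every alternative run. Leaving out single libraries gave log2 ratios of number between 1.75 and 2.33 for shAhR-2 against pLKO, between 2.99 and 3.73 for shAhR-2 against shAhR-1 and between -1.69 and -0.90 for shAhR-1 against pLKO, and of share between 0.74 and 1.13, between 1.61 and 2.02 and between -1.11 and -0.64. The number of domains rests on the width limit and on single libraries. At 1000 bp there were 3162 in Kelly, 4336 in BE2C and 5146 together, and at 2000 bp 65, 100 and 124. Asking for 3 of 3 libraries gave 110, 305 and 335, and for at least 1 gave 931, 1429 and 1738. Leaving out a pLKO library gave 112 to 390 in Kelly (112 without replicate 1, 125 without replicate 3), 323 to 520 in BE2C (433 without replicate 2, 323 without replicate 3) and 548 to 794 together. Without peaks at high background, an alternative chosen after seeing the data, there were 371, 625 and 755.

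Domains kept broad with shAhR-1 numbered 223 in Kelly and 593 in BE2C at 1000 bp, and 22 and 143 with 3 of 3 libraries. With single libraries left out, the ranges were 22 to 74 in Kelly shAhR-1 (24 without replicate 2, 22 without replicate 3), 147 to 336 in BE2C shAhR-1 (147 without replicate 1, 168 without replicate 2), 350 to 367 in Kelly shAhR-2 and 626 to 636 in BE2C shAhR-2. Without high-background domains, shAhR-1 kept 52 in Kelly and 332 in BE2C, and shAhR-2 kept 353 in Kelly and 605 in BE2C.

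Calls of the width fit at domains depended on most choices, and the cause was not tested. For shAhR-2 against shAhR-1 in Kelly (7) there were 221 without centring, 1 with covered bases, 47 with peaks in at least 7 of 9 libraries, 2 at a −log10 q of at least 5, 0 with only the compared groups and 0 to 17 with single libraries left out. For shAhR-2 against pLKO in BE2C (2) there were 24 without centring, 8 with only the compared groups and 0 to 4. For shAhR-2 against shAhR-1 in BE2C (0) there were 145 without centring and 0 to 12. For shAhR-1 against pLKO there were 1 without centring, 3 with 7 of 9 libraries and 0 to 8 in Kelly (7 without shAhR-1 replicate 1, 8 without pLKO replicate 2), and 0 to 3 in BE2C (3 without shAhR-1 replicate 1). For shAhR-2 against pLKO in Kelly there were 4 with only the compared groups and 0 to 0.

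With a replicate block, although centred widths gave no sign of pairing, the width fit called 0 domains in every comparison. The exact test of the number and share of broad peaks then gave an adjusted p of 0.0469 for both comparisons of shAhR-2. For shAhR-1 against pLKO the exact test gave an adjusted p of 0.219. All log2 ratios were as above.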
